A study of Mus musculus with 18 samples.

Results

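The cells described here are the adult BM stromal cells that the authors' cluster table assigns to MSCs-PαS, mesenchymal stem cells that carry PDGFRα and Sca-1. They were taken as all cells of the adult stromal library with the cluster code that pairs with this name, and they number 1125 of 6267 adult stromal cells (17.95%, exact binomial 95% interval 17.0 to 18.9) and of 56201 cells in all libraries. The cell table used here holds fewer adult stromal cells than the study states, so this is a share of the cells in that table. The series profiled HPs and CD45-Ter119- stroma from the BM of adult C57B6/J mice and of pups and embryos at P0, E18.5 and E16.5 by CITE-Seq, in which antibody tags and mRNA are counted in the same droplet. Adult stroma came from crushed, cut and collagenase-digested bones of a pool of mice, sorted as CD45-Ter119-, and each stage gave 1 stromal library. All mice were of this strain, no treatment was given, and the labels give no age in weeks for the adults. With 1 library a comparison has no replicate error, so values below carry exact 95% intervals that hold counting error only and no difference was tested between animals.

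MSCs-PαS take their name from platelet-derived growth factor receptor α, a receptor tyrosine kinase of mesenchymal cells encoded by Pdgfra, and from Sca-1, a GPI-anchored surface protein encoded by Ly6a. In adult marrow such cells are known to lie near arteries and the bone surface and to form colonies that can give rise to bone, fat and cartilage in culture. The better known CXCL12-abundant reticular cells (CAR cells), which surround sinusoids, make the chemokine CXCL12 and stem cell factor that retain and maintain HSCs.

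The adult stromal library held 16 clusters, from 21 to 1125 cells, of which MSCs-PαS had the most cells. Clusters are named as in the study, except P1, P4 and P5, which are called by their deposited code. They paired with the names Pericyte-1, Muscle and Pericyte-2, and the leading genes of P1 and P5 go against a pericyte name. P1 was led by the myogenic genes Myf5 and Pax7, and the leading genes included the smooth muscle gene Myh11 in P4 and the striated muscle gene Ckm in P5. The MSCs-PαS held 14549164 UMIs, with a median of 11706 UMIs per cell (883 to 40655), 3525 genes and 3.15% mitochondrial UMIs, and the other 5142 adult stromal cells had a median of 11896.5 UMIs. The 3 chondrocyte clusters held 39.5% of the UMIs of those other cells, so a ratio to all other adult stroma leans towards cartilage. Of the MSCs-PαS, 5 had a cell barcode that also occurs in another stromal library.

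Both genes of the name were high in the cluster. Levels are given as the UMIs of a gene divided by all UMIs of the summed cells and scaled to 1000000 (CPM). Ly6a reached 2543 CPM (2518 to 2569) in MSCs-PαS and 259.5 CPM in the other adult stromal cells, a ratio of 9.80 (9.64 to 9.97). Endo-Arterial cells held slightly more (2661 CPM), followed by Fibro-4 with 1368 CPM, Fibro-3 with 817 CPM and Endo-Sinusoidal cells with 715 CPM, and it stayed at or below 478 CPM in the other 11 clusters. Pdgfra reached 353 CPM (343.5 to 362.9) against 45.7 CPM, a ratio of 7.72 (7.40 to 8.06). Its level in MSCs-PαS was the highest of the 16 clusters, with Fibro-4 (318 CPM) and MSCs-CAR (217 CPM) next. The ratios depended on the reference, at 5.71 for Ly6a and 5.74 for Pdgfra when the other clusters were weighted equally and 6.40 and 4.90 without the chondrocyte clusters. Each gene of the name was thus shared with other clusters, Ly6a most with Endo-Arterial cells and Pdgfra most with Fibro-4, a cluster of 70 cells.

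**Figure D1:**
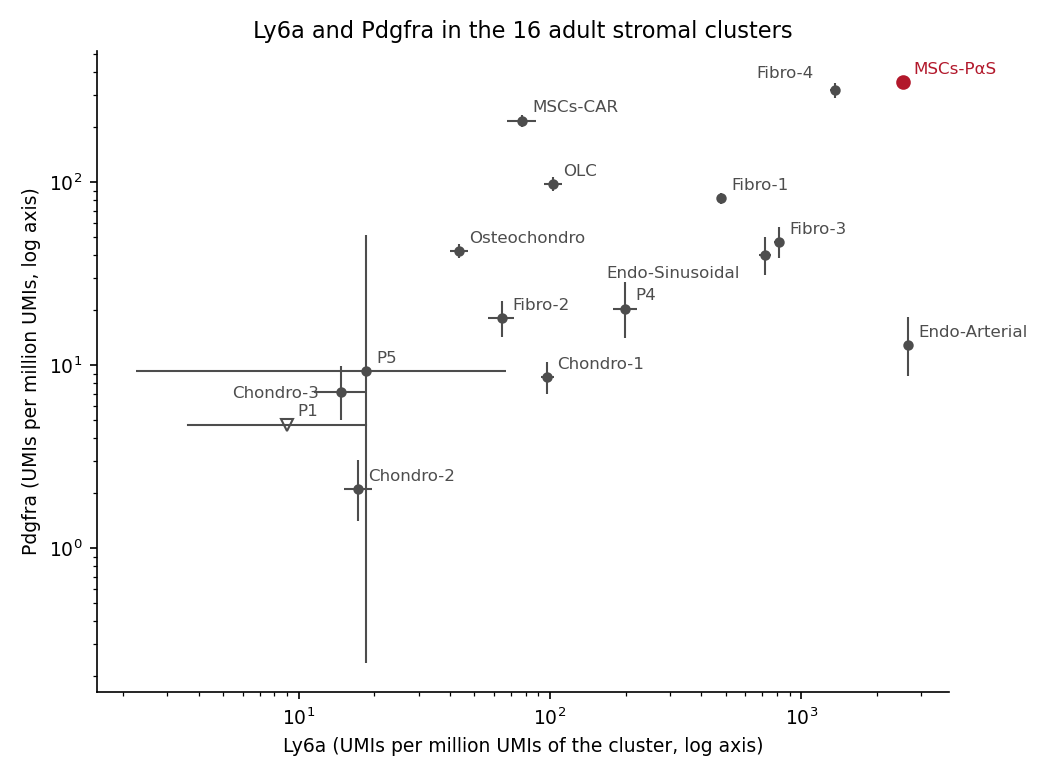
Ly6a (x axis) against Pdgfra (y axis) in the 16 adult stromal clusters, both as CPM on log axes, with exact Poisson 95% intervals as bars. MSCs-PαS (red) sit in the upper right at 2543 and 353 CPM, Endo-Arterial cells match them in Ly6a alone, and the open triangle for P1 marks the upper limit of a Pdgfra count of 0.

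Cell by cell the overlap was looked at after thinning each cell to 1000 UMIs, which left out 1 of the MSCs-PαS. A Ly6a UMI was then found in 81.0% of the MSCs-PαS (78.5 to 83.2), a Pdgfra UMI in 28.6% (25.9 to 31.3), both in 23.9% (21.5 to 26.5) and neither in 14.4%. Without thinning these shares were 96.4%, 91.6%, 88.5% and 0.533%. Cells expected to lack Pdgfra gave the background, with a Pdgfra UMI in 0 of 389 thinned Endo-Arterial cells (upper limit 0.944%, median 4572 UMIs before thinning) and in 2.06% of Endo-Sinusoidal cells (median 7118 UMIs). For Ly6a the share was 1.86% to 7.16% in the 3 chondrocyte clusters and 0 of 122 in P1 (upper limit 2.98%). Of the 312 adult stromal cells that held UMIs of both genes after thinning, 269 (86.2%) were MSCs-PαS, 16 were Fibro-1 and 12 were Fibro-4. The clusters were drawn from RNA and this one is named for these genes, so that share describes the cluster and is no test of its name. The share follows cluster size as well, since within the 70 Fibro-4 cells both were found in 17.1% (9.18 to 28.0) after thinning. Without thinning both were found in 94.3% of Fibro-4 cells, whose median was 18161.5 UMIs. Among MSCs-PαS with a Ly6a UMI, 29.6% (26.6 to 32.6) had a Pdgfra UMI, and among those without, 24.3% (18.7 to 30.6), and these intervals overlap.

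The surface proteins were counted independently of the RNA that defined the clusters. The panel read Sca-1, CD140a (the PDGFRα protein), CD31 (an endothelial adhesion protein) and CD73 (an ecto-nucleotidase used to define cultured MSCs) in this library, and a cell was called positive where its centered log-ratio (CLR) value exceeded 1. The Sca-1 tag count per MSC-PαS had a median of 57 (quartiles 26 and 164), against 68.5 in Endo-Arterial cells, 84 in Fibro-4 and 17 in MSCs-CAR. Accordingly 54.0% of the MSCs-PαS were Sca-1+ (51.1 to 57.0), as were 60.2% of Endo-Arterial, 77.1% of Fibro-4, 37.6% of Endo-Sinusoidal, 21.9% of Fibro-3 and 5.85% of MSCs-CAR cells. The share depended on the scale, at 34.7% with a CLR level of 1.5 and 84.1% with CLR taken across the 4 stromal libraries. The CD140a median was 9 in MSCs-PαS, 24 in Fibro-4, 7.5 in Fibro-3 and 3 in MSCs-CAR. CD140a+ cells made up 47.1% of the MSCs-PαS (44.2 to 50.1), 63 of the 70 Fibro-4 cells, 38.8% of Fibro-3 and 3.90% of MSCs-CAR, and at a CLR level of 1.5 they made up 26.2% of the MSCs-PαS. The gate shares below rest on the same level of 1. Thus MSCs-CAR, whose Pdgfra level was 217 CPM, ranked 14 of 16 clusters by CD140a+ cells, and a high RNA level did not go with a high protein share there.

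**Figure D2:**
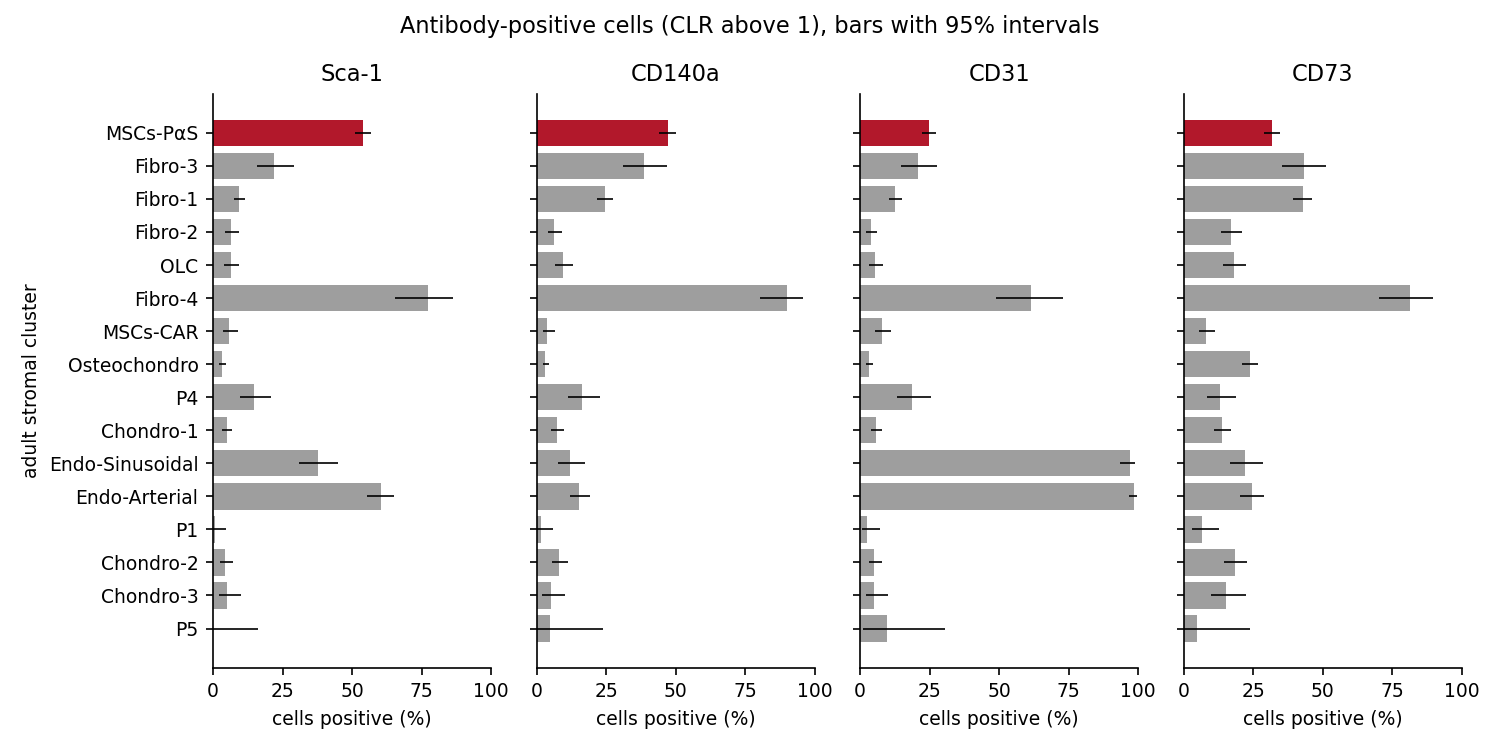
Share of antibody-positive cells (x axis, percent of cells with a CLR above 1) in each adult stromal cluster (y axis, in order of likeness to MSCs-PαS) for Sca-1, CD140a, CD31 and CD73, with exact binomial 95% intervals. MSCs-PαS (red) rank 3 for Sca-1 (54.0%) and 2 for CD140a (47.1%), behind Fibro-4 in both.

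Sorting by both proteins in silico gave a set richer in MSCs-PαS. Sca-1+CD140a+ cells were 430 of the MSCs-PαS (38.2%, 35.4 to 41.1), and MSCs-PαS made up 57.2% of the 752 adult stromal cells in this gate, with Fibro-1 giving 8.64%, Endo-Arterial cells 7.45% and Fibro-4 6.91%. These parts follow cluster size as well, and within Fibro-4 the gate held 52 of 70 cells (74.3%, 62.4 to 84.0), a larger share than of MSCs-PαS. When CD31+ cells were left out as well, the gate held 213 of the MSCs-PαS (18.9%), and they made up 73.2% (67.7 to 78.2) of its 291 cells, while endothelial cells gave none (0 of 400 Endo-Arterial, upper limit 0.918%). It held a like share of Fibro-4, at 13 of 70 cells (18.6%, 10.3 to 29.7). A further 417 MSCs-PαS (37.1%) were negative for both Sca-1 and CD140a by antibody. CD31 was positive in 24.7% of the MSCs-PαS although Pecam1, the gene of CD31, stood at 3.71 CPM, against 1305 CPM in Endo-Arterial cells. Inside MSCs-PαS, CD31+ cells had 8.17 CPM of Pecam1 and CD31- cells 1.92 CPM.

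Protein and RNA of the same molecule were compared within the cluster. Ly6a was 3037 CPM (3000 to 3074) in the 608 Sca-1+ cells and 1850 CPM (1816 to 1885) in the 517 Sca-1- cells. Pdgfra went the other way, at 321 CPM (308 to 334) in the 530 CD140a+ cells and 386 CPM (372 to 401) in the 595 CD140a- cells. Nt5e, the gene of CD73, was 47.9 CPM in CD73+ and 21.0 CPM in CD73- cells. Across the 1125 cells the counts of different antigens were correlated, with a Pearson r of log counts of 0.78 for CD140a and CD73, 0.69 for Sca-1 and CD140a, 0.69 for CD31 and CD73 and 0.43 for Sca-1 and CD31, and of 0.70, 0.44, 0.32 and 0.23 for CD127 with Sca-1, CD140a, CD73 and CD31. These points share 1 library and 1 staining, and r with UMIs per cell lay between 0.11 (CD127) and 0.26 (CD31). Scaled to the CD31 count of the same cell, which is no control in endothelial cells, the median log2 Sca-1 level was highest in MSCs-PαS (2.91, quartiles 2.00 and 4.21), with Fibro-4 next (2.48), and that of CD140a was 0.42 in MSCs-PαS, after Fibro-4 (0.66). CD127 (the IL-7 receptor) was sparse, with 801 counts in the whole library, of which 519 fell in MSCs-PαS and at least 2 counts in 92 of them (8.18%).

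Against all other adult stromal cells, MSCs-PαS were marked by fibroblast genes, and where the cells lay in the tissue was not measured. Of 14069 genes with at least 50 UMIs over both groups, 428 (3.04%) were at least 4-fold higher in MSCs-PαS and 1243 (8.84%) at least 4-fold lower, the median log2 ratio was 0.11, and for 495 genes (3.52%) the level was the highest of the 16 clusters. With no minimum of UMIs, 1959 genes were higher and 1419 lower, so the balance between directions depended on the minimum. The other cells held more UMIs in all (77319587 against 14549164), and a gene with few UMIs is thereby called higher more readily than lower. With the cells clustered again, 276 genes were higher and 1053 lower. The cluster was itself drawn from these genes, so these counts describe it and are no test. Of 18 genes of universal fibroblasts, 13 were at least 4-fold higher and none lower, with a median log2 ratio of 3.17, and 9 had their highest level here. Pi16, a secreted peptidase inhibitor, stood at 439.5 CPM against 10.4 CPM (ratio 42.2, 39.2 to 45.4), and Cd248, the surface glycoprotein endosialin, at 446 against 11.1 CPM (ratio 40.1, 37.3 to 43.1). Dpt, which binds collagen and decorin, stood at 1057 against 39.8 CPM (ratio 26.6), Dpp4, a surface dipeptidase, at 57.4 against 2.19 CPM (ratio 26.3) and Cd34 at 854 against 60.9 CPM (ratio 14.0). The remaining members above 4-fold were Scara5, Col14a1, Mfap5, Clec3b, Tnxb, Cd55, Ly6c1 and Sema3c, with ratios from 4.11 for Sema3c to 39.4 for Scara5. The 5 members under 4-fold (Anxa3, Penk, Igfbp6, Gfpt2 and Col15a1) had ratios of 1.88 to 3.68.

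Among genes with at least 100 CPM in MSCs-PαS, the 25 largest ratios ran from 91.1 (75.8 to 110.4) for Ccl11, the eosinophil chemokine eotaxin, to 11.8 for Tmod2, and included Scg3, C3, Hmcn2, Cadm3, Gpc3, Ccl7, Abca8a, Ebf2, Dkk2, Celf2, Sfrp1 and Sfrp4. For 20 of the 25 MSCs-PαS held the highest level of any cluster, and the other 5 (Hmcn2, Ifi27l2a, Emilin2, Cd34 and Sfrp4) peaked in P1, Endo-Arterial, Fibro-4, Endo-Arterial and MSCs-CAR cells. Without thinning, the share of MSCs-PαS with a UMI of these genes ran from 20.4% for Ccl7 to 95.3% for Mfap5, at like median depth to the other adult stromal cells. It was 22.7% against 0.875% of the other cells for Ccl11, 36.1% against 3.21% for Pi16, 51.2% against 7.12% for C3, 77.6% against 6.44% for Cd248 and 95.3% against 12.2% for Mfap5. Among the 10 genes with the largest ratios at that level were 4 of the universal fibroblast list (Pi16, Cd248, Scara5 and Dpt) and neither Ly6a nor Pdgfra.

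**Figure D3:**
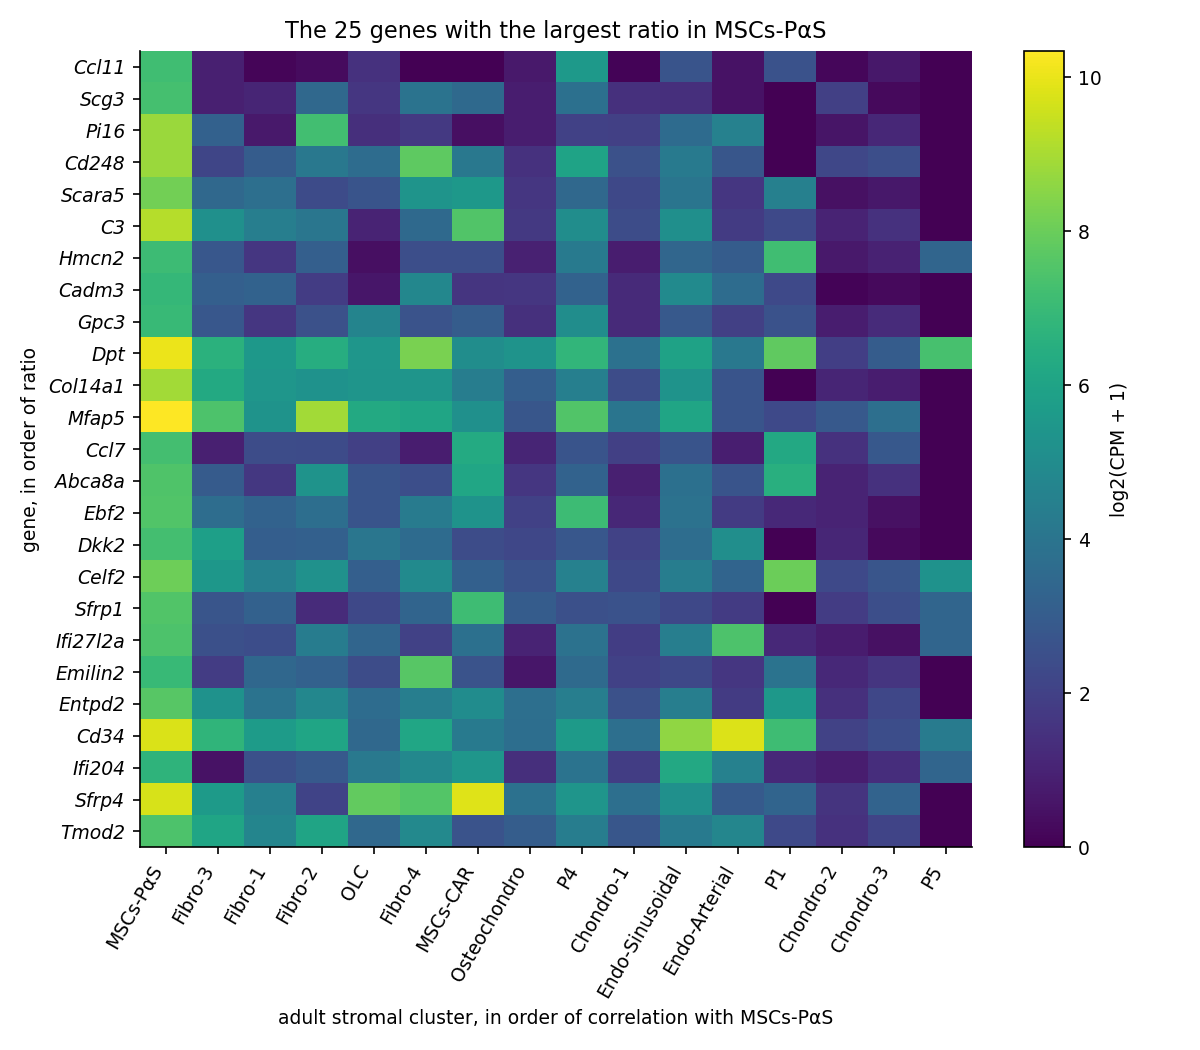
Level of the 25 genes with the largest ratio in MSCs-PαS among those with at least 100 CPM there (y axis, largest at the top) in the 16 adult stromal clusters (x axis, in order of correlation with MSCs-PαS), colored by log2(CPM + 1). The first column is bright throughout, while single genes are also bright elsewhere, such as Cd34 in both endothelial clusters and Sfrp4 in MSCs-CAR.

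Of 18 surface antigens used to define marrow MSCs, 7 were at least 4-fold higher and 3 at least 4-fold lower (median log2 ratio 0.73), against 3.04% and 8.84% of all genes, and the share lower rests on only 3 genes. The 7 include Ly6a and Pdgfra, the genes of the cluster's name, and Cd34, which is also on the universal fibroblast list. The share higher is thus not independent of the name or of that list. Thy1 (CD90) stood at 224 against 21.4 CPM (ratio 10.5, 9.87 to 11.1), and Anpep, the aminopeptidase CD13, at 133 against 12.6 CPM (ratio 10.5). Pdpn, the mucin podoplanin, was 6.59-fold and Ngfr, the low affinity nerve growth factor receptor, 5.04-fold higher, the latter at 5.09 CPM. Lower were Mcam (CD146, 1.38 against 16.9 CPM), Nt5e (30.6 against 164.5 CPM) and the intermediate filament gene Nes (3.92 against 15.7 CPM). Cd44 fell short of the mark at 3.92-fold higher, and Eng (CD105) had a ratio of 0.66, Vcam1 of 0.82 and Lepr of 0.59.

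Of 12 complement genes, 8 were at least 4-fold higher, against 3.04% of all genes, and 1 lower (Clu), with a median log2 ratio of 2.77. C3, the central component, reached 580.0 CPM against 15.2 CPM (ratio 38.1, 35.8 to 40.5), C4b 426 against 46.3 CPM (ratio 9.20), the initiating protease C1s1 289 against 26.2 CPM (ratio 11.0) and its inhibitor Serping1 1951 against 272 CPM (ratio 7.18). Cfd, the alternative pathway protease adipsin, also passed with a ratio of 57.7, but 453 of its 456 UMIs came from 1 cell, and 7 genes remain without it. As a share of UMIs the list ranked 4 of 16 clusters (0.441%), with Fibro-1 the highest (1.00%). Among 17 chemokines, cytokines and receptors, 6 were at least 4-fold higher and none lower (median log2 ratio 1.68). Next to Ccl11 these were Ccl7 (149.7 against 6.52 CPM, with 12.4% of its UMIs in 1 cell), Ccl2 (110 against 10.5 CPM), Cxcl1 (436 against 51.6 CPM), Ccl19 (8.25 against 1.55 CPM) and Csf1 (184 against 41.8 CPM).

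Matrix genes split by type, and are read against the 3.04% of all genes that were higher and the 8.84% that were lower. Of 17 genes of elastic fibres and microfibrils, 7 were at least 4-fold higher and none lower (median log2 ratio 1.82). Fbn1, the main microfibril protein, stood at 1247 against 136 CPM (ratio 9.19), the latent TGF-β binding protein Ltbp4 at 845 against 97.4 CPM (ratio 8.68) and Eln, elastin, at 187 against 27.5 CPM (ratio 6.77). Basement membrane genes followed, with 5 of 13 higher and none lower, namely Nid1 (ratio 7.90), Lamb1, Lama2, Lama4 and Lamc1. Of 20 genes of collagen fibrils, 4 were higher (Col14a1, Col5a3, Loxl1 and Col3a1) and Col12a1 was lower. Col3a1 reached 12526 against 2280 CPM, whereas Col1a1 was level at 6412 against 6378 CPM (ratio 1.01, 0.998 to 1.01). Of 10 small leucine-rich proteoglycans only Podn was 4-fold higher and Fmod and Omd were lower, and Dcn, decorin, had a ratio of 1.52. Of 15 matrix proteases and inhibitors, 1 was higher (Mmp19) and 1 lower (Mmp13), which is near the shares of all genes.

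Secreted signals were mixed in direction. Among 24 WNT, BMP and TGF-β signals and antagonists, 6 were at least 4-fold higher and 3 lower (median log2 ratio 1.08), against 3.04% and 8.84% of all genes. Wnt2, a WNT ligand, had 21.8 CPM against 0.233 CPM (ratio 93.6, 58.3 to 160.0) and was found in 118 cells. The WNT antagonists Dkk2, Sfrp1 and Sfrp4 had ratios of 20.7, 17.7 and 12.7, and the follistatin family genes Fstl1 and Fst 8.76 and 4.87. Grem1, a BMP antagonist, was lower at 4.61 against 59.9 CPM, as were Wif1 (63.0 against 716 CPM) and Rspo3 (11.2 against 59.4 CPM). Of 20 growth factor and IGF binding protein genes, 7 were higher and 2 lower, and in both lists the share lower was near that of all genes. Fgf10, a fibroblast growth factor that signals to epithelia, had 15.6 against 0.259 CPM (ratio 60.3, 38.1 to 100.6) in 129 cells, and Igf1 had 1006 against 143 CPM (ratio 7.02). Vegfd (ratio 13.8), Hgf (10.2), Nov (8.82), Ntn1 (5.31) and Fgf7 (4.54) were the others, while Igfbp2 and Ctgf were lower.

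Of 34 transcription factors of mesenchyme, 6 were at least 4-fold higher and 5 lower (median log2 ratio 0.78), against 3.04% and 8.84% of all genes. Ebf2, an early B cell factor family member expressed in mesenchymal precursors, led with 183 against 8.73 CPM (ratio 21.0, 19.3 to 22.9), followed by the odd-skipped factor Osr1 (85.7 against 7.55 CPM, ratio 11.3), Twist2 (5.42), Osr2 (4.35), Meox2 (4.19) and Ebf1 (4.14). Prrx1, a limb mesenchyme factor, was 3.16-fold higher. Lower were the lineage factors of bone (Sp7, 2.54 against 39.0 CPM, and Runx2, 13.9 against 74.8 CPM), cartilage (Sox9, 84.7 against 555 CPM) and tendon (Scx, 14.2 against 80.5 CPM), with Foxc2. Among 14 adipogenesis genes, Ebf2, Medag and Ebf1 were higher and Adipoq, Fabp4 and Cd36 lower, and Pparg stood at 2.96 against 9.30 CPM. Of 12 genes listed under detoxification and redox, 5 were higher and none lower, with the globin Cygb at 507 against 45.5 CPM (ratio 11.1). The 5 include Gsn, gelsolin, at 16256 against 2099 CPM (ratio 7.74), which is an actin-binding protein and no redox enzyme. All 14 cell cycle genes had a ratio under 1, with only 2 (Cdk1 and Birc5) at least 4-fold lower, where 8.84% of all genes were, and none of the 14 immediate early and stress genes passed in either direction (median log2 ratio -0.04).

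Lists of markers of other cell types were mostly lower. All 10 chondrocyte genes, 10 of 12 osteolineage genes, all 7 muscle genes, 8 of 10 endothelial genes, 6 of 10 mural genes, 4 of 9 tendon genes, 4 of 6 synovial lining genes and 5 of 16 CAR genes were at least 4-fold lower, against 8.84% of all genes. The reference holds the cells that define each list, and as a share of UMIs the CAR list in MSCs-PαS (0.170%) ranked 3 of 16 clusters, far below MSCs-CAR (4.17%). Against Fibro-3, 9 of the CAR genes were at least 4-fold higher in MSCs-PαS and none lower, where 5.69% and 1.03% of all genes were. Among these, Kitl, Adipoq, Hp, Il7, Agt and Pappa had only 1 to 5 UMIs in Fibro-3. The lower limits of the ratio fell under 4 for Adipoq (1.62), Il7 (1.26), Agt (2.91) and Angpt1 (3.51). With at least 100 CPM in the other cells, the 15 smallest ratios included those of chondrocyte genes such as Col10a1, Hapln1 and Ucma, the osteoblast genes Bglap and Bglap2, Mmp13, and 3 Serpina1 genes, which share near-identical sequence and may share reads. Ratios above 1 in these lists were those of Has1, a hyaluronan synthase (306 against 39.2 CPM, ratio 7.81), and Creb5 (2.17) on the synovial list, Tek, an angiopoietin receptor, on the endothelial list (26.8 against 12.3 CPM, ratio 2.18), Phex (1.19) on the osteolineage list, and Angpt1 (3.97), Lpl (1.53), Cxcl14 (1.21) and Ebf3 (1.08) on the CAR list. Among other lists, read against 3.04% of all genes at least 4-fold higher and 8.84% lower, 2 of 6 Schwann genes were lower and none higher, and of 3 tested mesothelial and epithelial genes Krt19 (63 UMIs, of which 93.7% in 10 cells) and Msln (50 UMIs) were higher and Epcam was at 0 UMIs against 2.48 CPM elsewhere. Of 3 tested adipocyte genes Adipoq and Fabp4 were lower and Cfd, from its 1 cell, higher, and of 5 tested Ly6 family genes Ly6a and Ly6c1 were higher. Of 5 tested myeloid genes Lyz2 was higher (11.5 against 2.47 CPM) and Cd74 lower, Ptprc, the CD45 gene, had 1 UMI, and the 6 erythroid genes had ratios of 0.54 to 2.03. Of 7 B cell genes only Ebf1 had enough UMIs, which mesenchymal cells express too.

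MSCs-CAR, the other MSC cluster (359 cells), shared Pdgfra with MSCs-PαS and differed in most genes of the CAR and universal fibroblast lists. Of 11234 genes with enough UMIs, 604 (5.38%) were at least 4-fold higher in MSCs-PαS and 521 (4.64%) lower. Cxcl12 stood at 723 CPM in MSCs-PαS and 20242 CPM in MSCs-CAR and was thus 28.0-fold lower in MSCs-PαS. Kitl (stem cell factor) stood at 26.7 and 1005 CPM, Vcam1 at 67.1 and 1461 CPM, and Lepr (leptin receptor), at 794 CPM in MSCs-CAR, was 26.5-fold lower in MSCs-PαS. In all, 15 of 16 CAR genes were at least 4-fold lower, as were all 12 osteolineage genes, while all 18 universal fibroblast genes were at least 4-fold higher. Ly6a was 32.9-fold higher (28.9 to 37.6) in MSCs-PαS, and Pdgfra 1.63-fold (1.5 to 1.77), and Pdgfrb was lower at 110 against 436 CPM. Among genes with at least 100 CPM in MSCs-PαS, the largest ratios were those of Pi16 (1 UMI in MSCs-CAR, ratio 1319, 237 to 52099.5), Ccl11 (0 UMIs in MSCs-CAR, at least 141-fold higher with the floor of 3 counts over the cluster), Eln (ratio 112), Has1 (102), Mfap4 (86.5), Cadm3 (58.4), Cd34 (48.3) and Thy1 (39.5). Among genes with at least 100 CPM in MSCs-CAR, the lowest ratios were those of the kininogen gene Kng1 (0.344 against 341 CPM), Mmp13 (1.86 against 1661 CPM), Cbln1, C6, Gdpd2, Marc1, Adipoq (4.06 against 2177 CPM) and Serpina3f. Of the 12 tested HSC niche factors 2 were at least 4-fold higher than in all other adult stroma (Igf1 and Csf1) and 1 lower (Spp1), the latter near the 8.84% of all genes (3.04% were higher), and against MSCs-CAR 5 were lower and none higher.

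The clusters most alike in overall expression were fibroblasts. Across 20275 genes, which are not independent replicates, r of log2(CPM + 1) with MSCs-PαS was 0.960 for Fibro-3 (160 cells), 0.959 for Fibro-1 (879 cells), 0.953 for Fibro-2, 0.951 for OLC, 0.949 for Fibro-4 and 0.932 for MSCs-CAR. Fibro-3 carried more tendon RNA. Against it, 622 of 10931 genes (5.69%) were at least 4-fold higher in MSCs-PαS and 113 (1.03%) lower, and the lower ones included 8 of 9 tendon genes. Kera stood at 31.7 against 1739 CPM, Fmod at 311.5 against 10457 CPM, Tnmd at 97.1 against 1992 CPM and Scx at 14.2 against 284 CPM. Higher were Cd248 (446 against 3.46 CPM, ratio 129), Pi16 (ratio 53.5, 34.2 to 88.9), Pdgfra (ratio 7.49) and Cd34 (7.99), as well as Ifi204, Scg3, Ccl7 and Ccl11, which had 1 or 2 UMIs in Fibro-3 and ratios of 239 (42.8 to 9445), 182 (50.2 to 1500.4), 173 (47.8 to 1430) and 163 (45.2 to 1350.2). Clec3b did not separate them (1663 against 1681 CPM, ratio 0.99, 0.956 to 1.02), nor did Thy1 by much (ratio 1.17). MSCs-PαS held 14549164 UMIs, against 2311602 in Fibro-3, 3000474 in MSCs-CAR and 10907295 in Fibro-1. The minimum of 50 UMIs over both groups thus admits genes low in the smaller cluster more readily than genes low in MSCs-PαS. The numbers of genes higher and lower against these clusters are not balanced for this.

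Fibro-1 differed from MSCs-PαS in other matrix genes. Of 11510 genes, 707 (6.14%) were at least 4-fold higher in MSCs-PαS and 208 (1.81%) lower. Lower were Npy (2.47 against 291 CPM, 117-fold), Cilp2, Clu (429 against 9064 CPM), Chad (445 against 8899 CPM), Angptl7, Htra4, Tnfrsf11b and Spp1. Pi16 had 7 UMIs in Fibro-1 (ratio 685, 332 to 1704), Ccl11 1 UMI (ratio 1542, 276 to 60939), and Cd248 and Gpc3 had ratios of 63.1 and 58.6. Of the 18 universal fibroblast genes, 9 were at least 4-fold higher in MSCs-PαS than in Fibro-1 and 9 than in Fibro-3, and none was 4-fold lower than in either. Per cell thinned to 1000 UMIs, this list took a median of 1.2% of UMIs in MSCs-PαS (quartiles 0.8 and 1.7), 1.1% in Fibro-3, 0.5% in Fibro-1 and in Endo-Arterial cells, 0.4% in Fibro-4 and 0.1% over all other adult stroma.

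The MSCs-PαS were not uniform. Clustered on their own RNA they fell into 6 sub-clusters of 354, 343, 219, 117, 57 and 35 cells, which are described by their leading genes and not named, and whose RNA differences are no finding since they made the split. Sub-cluster 1 (31.5% of the cells) was led by Meox1, Stmn2, Tnmd, Spon2 and Thbs4, the last 2 being matrix proteins, with Thbs4 at 1473 CPM against 471 CPM in the other MSCs-PαS. Sub-cluster 2 (30.5%) was led by Cxcl2, Wisp2, Cxcl12, C4b and Fbln7. It held most of the Cxcl12 of the population (1659 against 289 CPM), with C3 at 1012 CPM, Igf1 at 1814 CPM and Vcam1 at 143 CPM, and the single cell rich in Cfd lay in it. Sub-cluster 3 (19.5%) was led by Hbb-bt, Stmn1, Pi16, Hba-a1 and Cd55. Pi16 reached 1461 CPM there against 191 CPM in the rest, and Dpp4, Sema3c, Anxa3 and Cd248 were highest there too (166, 673, 491 and 885 CPM). The hemoglobin genes led through 1 cell, which held 306 of the 433 Hbb-bt UMIs, while Stmn1, Mki67 (40.4 CPM) and Top2a (44.2 CPM) came from few cells, with 67.6% of Stmn1 UMIs in 10 cells.

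Sub-cluster 4 (10.4%) had Gjb2, C2, Arhgdib and Mfap4 among its leading genes, of which Gjb2 came from 3 cells, 1 of them with 125 of its 131 UMIs, and it had the most Lepr (120 CPM). Sub-cluster 5 (5.07%) had Hsd11b1, which activates glucocorticoids, Smoc2, Ccl11 and Col8a1 among its leading genes. Ccl11 was 1046 CPM in it and 95.9 CPM in the rest, and it had the highest Pdgfra (543 CPM, 490 to 601) and Hmcn2 (669 CPM). Sub-cluster 6 (3.11%) was led by the cartilage and bone genes Cytl1, Meltf, Ibsp, Ucma and Col2a1, with Col2a1 at 18010 CPM against 163 CPM in the rest. Its cells had a median of 27186 UMIs, against 9457 to 12627 in the others and 27498 in the 3 chondrocyte clusters, the part of doublets in it was not tested, and Ly6a was still 1496 CPM and Pdgfra 185 CPM in them. In the other 5 sub-clusters Col2a1 lay between 159 and 171 CPM, so the mean of 1335 CPM for the population rested on sub-cluster 6, and on part of its 35 cells. The 10 cells with the most UMIs of a gene held 72.7% of those of Col2a1. They held 84.6% for Cytl1, 60.8% for Meltf, 85.5% for Ibsp and 75.4% for Ucma. Ly6a ranged from 1382 CPM in sub-cluster 4 to 3589 CPM in sub-cluster 3, and Pdgfra from 185 CPM in sub-cluster 6 to 543 CPM in sub-cluster 5.

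The antibodies, which had no part in the split, differed between sub-clusters. Sca-1+ cells made up 81.3% (75.5 to 86.2) of sub-cluster 3 and 82.9% (66.4 to 93.4) of sub-cluster 6, 53.7% of sub-cluster 1, 46.1% of sub-cluster 2, 35.0% (26.5 to 44.4) of sub-cluster 4 and 21.1% (11.4 to 33.9) of sub-cluster 5. The median Sca-1 count was 155 in sub-cluster 3, 75 in sub-cluster 6, 57, 43 and 33 in sub-clusters 1, 2 and 4, and 25 in sub-cluster 5. CD140a+ cells made up 63.0% of sub-cluster 3 and 19.3% (10.1 to 31.9) of sub-cluster 5, although Pdgfra RNA was 279 CPM in the first and 543 CPM in the second. CD31+ and CD73+ shares were also lowest in sub-cluster 5, at 3.51% and 12.3%, against 33.3% and 39.3% in sub-cluster 3 and 34.3% and 51.4% in sub-cluster 6. CD127+ cells, which here means at least 2 counts of a sparse tag, made up 22.4% (17.0 to 28.5) of sub-cluster 3 and 2.62% to 8.57% of the others. The CD127 count went with the Sca-1 count across MSCs-PαS (r = 0.70). Counts of Sca-1, CD140a, CD31 and CD73 also went together (r of 0.43 to 0.78). The part of a tag count common to all antigens in these shares, and in the gate below, was not tested. The Sca-1+CD140a+CD31- gate held 28.8% of sub-cluster 3, 25.7% of sub-cluster 6, 20.9% of sub-cluster 1, 14.0% of sub-cluster 2, 12.8% of sub-cluster 4 and 7.02% of sub-cluster 5, so this gate took unequal shares of the sub-clusters.

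**Figure D4:**
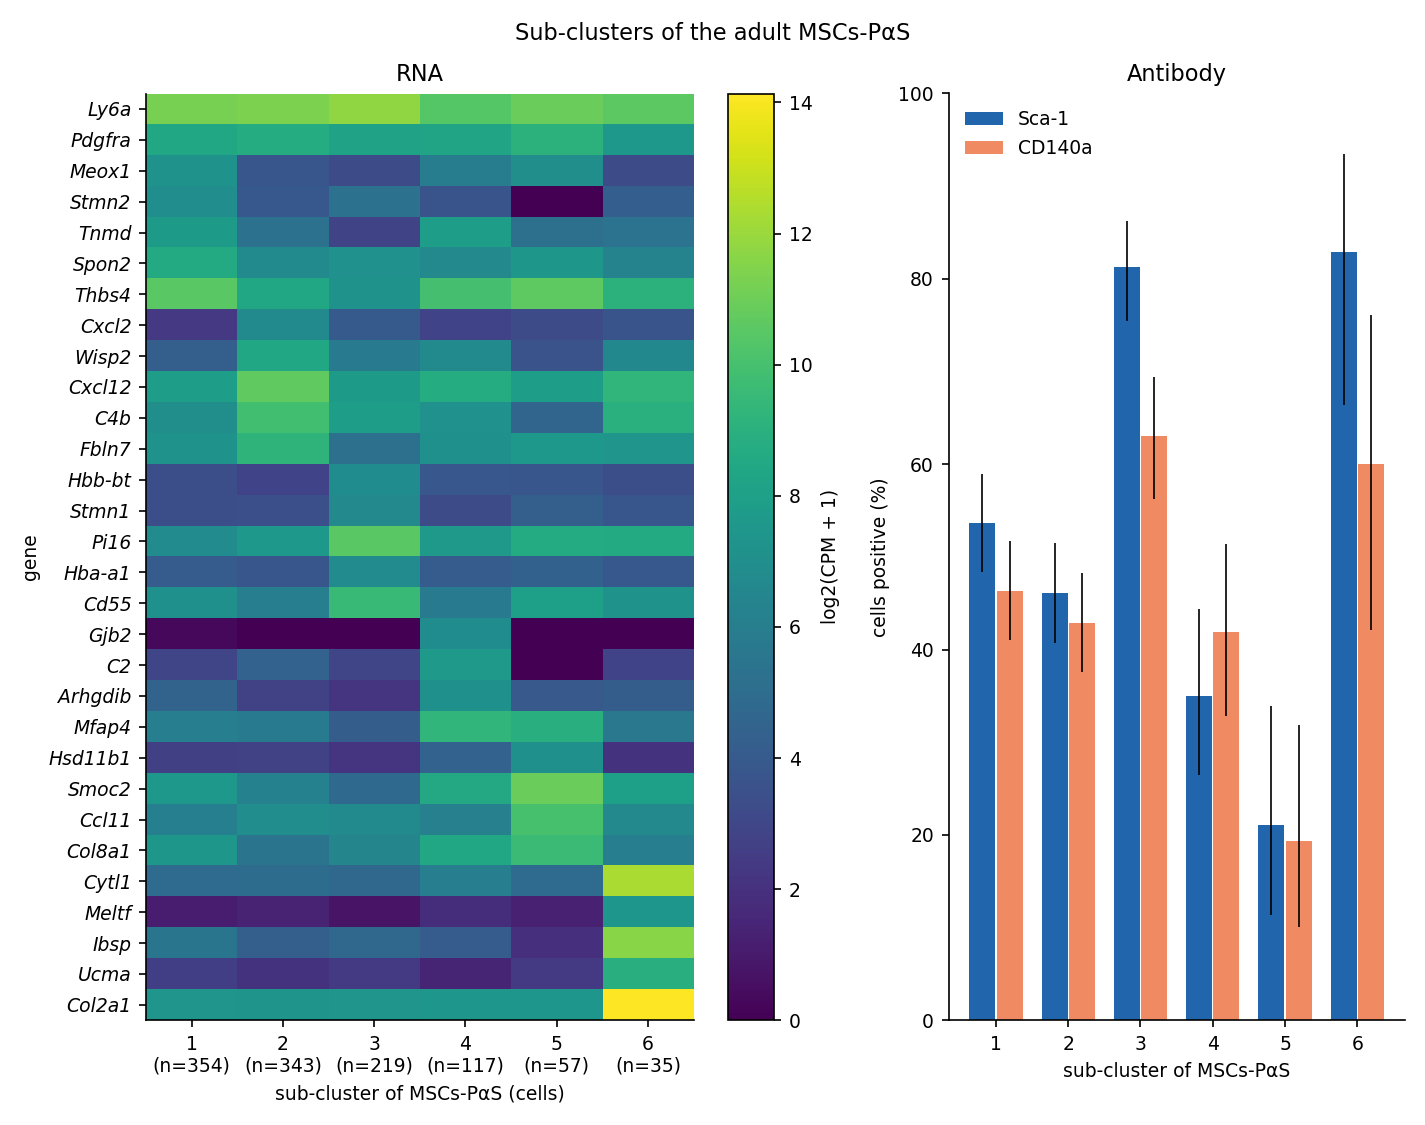
Left, log2(CPM + 1) of Ly6a, Pdgfra and the leading genes named in the text (y axis) in the 6 sub-clusters of MSCs-PαS (x axis, with cell numbers); right, share of Sca-1+ and CD140a+ cells (y axis, percent, exact binomial 95% intervals) in the same sub-clusters. Sub-cluster 3 has the brightest Pi16 and 81.3% Sca-1+ cells, and sub-cluster 5 the brightest Ccl11 and 21.1% Sca-1+ cells.

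Whether cells of this kind were present before adulthood was asked by likeness. The perinatal cluster with the highest correlation to adult MSCs-PαS was F3 at E16.5 (606 cells, r = 0.919), F3i at E18.5 (764 cells, r = 0.938) and F7 at P0 (1351 cells, r = 0.951). These are the deposited codes, each stage is 1 library, and stage, library and tissue preparation cannot be told apart. Ly6a was 66.0 CPM in the E16.5 cluster, 154 CPM at E18.5, 284 CPM at P0 and 2543 CPM in adult MSCs-PαS, and Ly6c1, its neighbor in the Ly6 family, was 18.2, 32.2, 76.9 and 1463 CPM. Pdgfra differed less, at 147, 212, 194 and 353 CPM. By antibody, 37.0%, 32.3% and 35.8% of these cells were Sca-1+ and 86.5%, 60.2% and 50.5% CD140a+, with CLR set within each library. The rise of Ly6a and Ly6c1 from E18.5 to P0 depended on the choice of F7 at P0. In P0 cluster F3i (930 cells, r = 0.927) Ly6a was 29.97 CPM and Ly6c1 13.2 CPM. In P0 cluster F3ii (265 cells, r = 0.927) they were 58.8 and 17.1 CPM. These values lie below those of the E18.5 cluster and of adult MSCs-PαS.

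Some fibroblast genes were near the adult level and others far below. In the most alike clusters Pi16 was 34.6, 69.0 and 132 CPM at E16.5, E18.5 and P0 against 439.5 CPM in the adult, and Dpt 424, 438 and 429 against 1057 CPM. The Pi16 level at P0 depended on the cluster too, at 37.7 CPM in F3i and 15.6 CPM in F3ii. Mfap5 (734 to 959 CPM) was nearer to its adult level of 1296 CPM, and Col14a1 was above it (708 to 908 against 473 CPM). C3 was at 0.400, 1.55 and 2.30 CPM against 580.0 CPM, and the complement list as a whole took 0.0230% to 0.0339% of UMIs against 0.441%. Gsn was 349, 478 and 699 CPM against 16256 CPM, and the detoxification list took 0.0735% to 0.175% against 2.08%. Gsn gave most of that adult share, and without it the list took 0.0386% to 0.105% against 0.450%. Single genes that went the other way are named here after their values were seen, and the growth factor and IGF binding protein list as a whole took more UMIs in the adult (1.18%) than before (0.331%, 0.430% and 0.516%). Lists that took less in the adult included HSC niche factors (0.264% against 0.676%, 0.785% and 0.637%) and adipogenesis (0.240% against 0.402%, 0.636% and 0.496%). Both directions rested on few genes, which were left out after their values were seen. Without Dlk1 the adipogenesis list took more in the adult (0.239% against 0.0901%, 0.122% and 0.139%). The HSC niche list still took less in the adult without Dlk1 (0.264% against 0.364%, 0.272% and 0.279%). When Ptn was left out as well, that list took more in the adult (0.246% against 0.130%, 0.148% and 0.105%). Dlk1, an imprinted Notch family protein, was 3122, 5135 and 3573 CPM against 4.95 CPM in the adult, Igf2 was 111, 105.5 and 94.3 CPM against 0.481 CPM (7 UMIs), and Fbn2, the fetal fibrillin, was 511, 627 and 527 CPM against 4.33 CPM. Igfbp2 had 2 UMIs in adult MSCs-PαS and 87.3 to 266 CPM in the perinatal clusters, the growth factor Ptn was 2335, 1240 and 1747 CPM against 180.1 CPM, and Gpc3, a glypican that restrains fetal growth, was 673, 905 and 581 CPM against 124 CPM. Cell cycle genes took 0.0512% to 0.0701% of UMIs before adulthood and 0.0143% in the adult. Among all genes with enough UMIs, 1034 of 11636 (8.89%) were at least 4-fold higher in the adult cells than in the E16.5 cluster and 460 (3.95%) lower. The counts were 756 (6.36%) and 527 (4.43%) of 11896 against E18.5, and 570 (4.62%) and 505 (4.09%) of 12336 against P0. Immediate early and stress genes differed as well, with 1.12% of UMIs in the adult cells and 0.353%, 0.448% and 0.720% at E16.5, E18.5 and P0, and their part in the other differences was not tested.

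**Figure D5:**
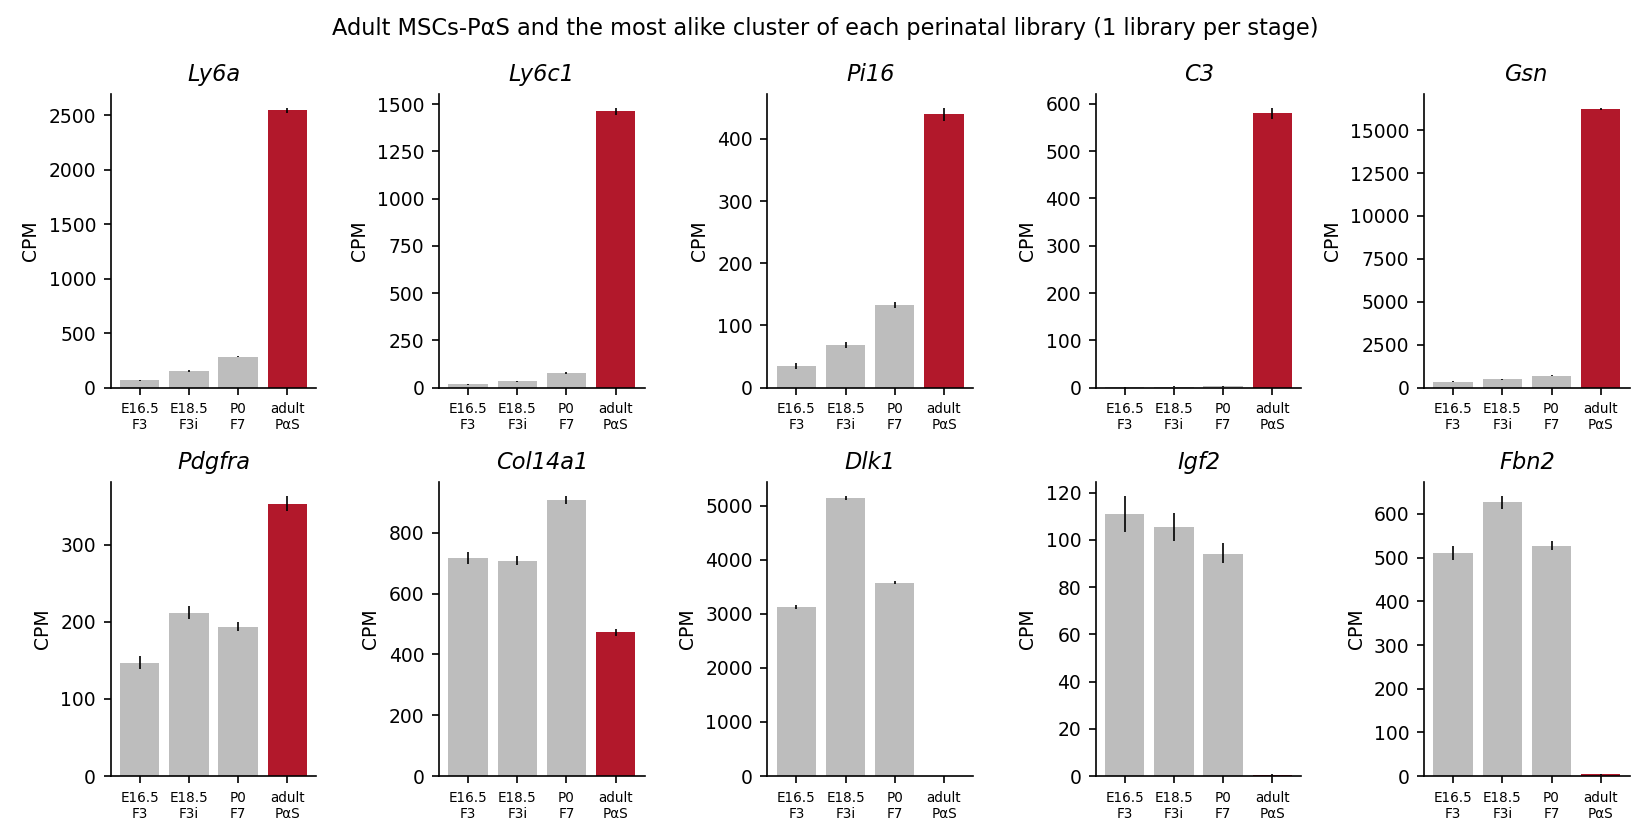
Level (y axis, CPM, own scale in each panel) of 10 genes in the most alike cluster of each perinatal stromal library (gray) and in adult MSCs-PαS (red), with exact Poisson 95% intervals. Ly6a, Ly6c1, Pi16, C3 and Gsn are highest in the adult, Dlk1, Igf2 and Fbn2 are near 0 there, and Pdgfra lies between 147 and 353 CPM throughout.

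Across whole perinatal libraries, 19.9% (19.5 to 20.4) of 27281 thinned cells reached the 5th percentile of adult MSCs-PαS for the universal fibroblast list, which was 0.3% of UMIs or 3 UMIs per thinned cell. The value rests on this level and depth, at 8.20% without thinning, 11.1% at 2000 UMIs per cell, 55.7% at the 1st percentile and 0.652% with the study's own markers of the cluster. The share was 15.0% at E16.5, 17.6% at E18.5 and 24.3% at P0. Such a low level was also reached by 657 of 876 adult Fibro-1 cells, 81.7% of Endo-Arterial and 98.1% of Fibro-3 cells and by 3.34% of MSCs-CAR, so it does not single out MSCs-PαS.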

How the data were processed

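CITE-Seq libraries (10X Chromium 3' v3.1 chemistry) were made from sorted HPs and from CD45-Ter119- stroma at each stage, 1 stromal library per stage, each from pooled mice and not repeated. The deposited gene and antibody matrices hold raw counts of UMIs per cell, which the authors made with Cell Ranger 3.1.0 and its mm10 reference at default settings and filtered by mitochondrial content and by leaving out cells with the most genes or UMIs (per the study's methods). The submitters' processing notes name R 4.0 and Seurat 3.1.5 as well. The deposited cell table also gives the mitochondrial fraction per cell, which the authors computed, and their cluster codes, and 13 of its columns were not used. Stromal depths were 6267 to 14084 cells and 91868751 to 194892476 UMIs per library.

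Codes were paired with the study's cluster names by the first 50 markers of each name, and all 16 adult codes fell to their own best name (score 1.45 for F8 and MSCs-PαS, next best 0.678). UMIs were summed per cluster with Python 3.11.15, numpy 2.4.6, scipy 1.17.1 and pandas 2.3.3. With 1 library per stage no test was made. Intervals are exact at 95% (Poisson for CPM, conditional binomial for a ratio, Clopper-Pearson for a share) and cover counting error only. A gene was called at 4-fold among genes with at least 50 UMIs over both groups. Antibody counts were CLR-normalized within the library. Sub-clusters came from scanpy 1.11.5 and leidenalg 0.10.2 (2000 variable genes, 20 components, resolution 0.3, chosen after seeing the data. Resolutions 0.5 and 0.8 gave 7 and 12 groups). No doublet caller was run. The scripts were tested on simulated data.

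Named genes were the members of role lists, the 25 largest and 15 smallest ratios, the 8 largest each way against MSCs-CAR, Fibro-3 and Fibro-1, and 5 leading genes per sub-cluster, with at least 100 CPM and 50 UMIs in the higher group, leaving out mitochondrial and ribosomal protein genes. Some genes that met the rule are not reported here. Members and lists were chosen with earlier results of these data known. Alternatives changed the filter, denominator, reference, summary over cells, depth, clustering, CLR level and gene list.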

Additional observations from a re-analysis of the deposited data

How the results depend on the processing

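No paired analysis was possible because each stage has 1 stromal library and no result comes from a test. Of 52 alternative values, 24 stayed within the counting interval of the reported value (for counts of genes, within 1.5 times), 28 moved further and no ratio changed direction. Genes at least 4-fold higher numbered 1959 with no minimum of UMIs, where 1419 were lower, and 276 when the cells were clustered again from the counts. That clustering split the MSCs-PαS, whose 1125 cells fell largely (92.0%) in 3 new clusters. The new cluster with the most MSCs-PαS held 37.4% of them and had 426 cells (6.80% of adult stroma). Its Ly6a ratio was 3.95 and its Pdgfra ratio 5.19, against a rest that holds the other MSCs-PαS. The Ly6a and Pdgfra ratios were 5.71 and 5.74 with clusters weighted equally, 5.96 and 6.42 as means of per-cell CPM, 10.8 and 8.28 without the tenth of cells with most UMIs per cluster, and, among alternatives chosen after seeing the data, 6.40 and 4.90 against stroma without chondrocyte clusters and 10.1 for Ly6a without the sub-cluster led by cartilage genes. UMIs of both genes were found in 88.5% of cells without thinning and 42.0% at 2000 UMIs. Antibody shares were set by the CLR scale, with Sca-1+ at 68.2%, 34.7% and 84.1% and CD140a+ at 67.4%, 26.2% and 60.9% for a level of 0.75, a level of 1.5 and CLR across the 4 stromal libraries. With the study's 248 markers of the cluster, which hold 12 of the 18 universal fibroblast genes and were chosen on these cells, the median list share was 20.2% and 0.652% of perinatal cells reached the level. With the 18 genes that share was 8.20% without thinning, 11.1% at 2000 UMIs and 55.7% at the 1st percentile. Depth limits single-cell statements, since 1000 UMIs per cell show Pdgfra in 28.6% of the MSCs-PαS.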
